A study of Mus musculus with 11 samples.

Results

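The 35 genes described here encode the core machinery of macroautophagy, and they were chosen by symbol from a fixed list. The list was chosen with earlier results of these data known, so shares of members set beside those of all genes are descriptive. All 35 listed genes were found among the 14602 genes of the count table. The libraries were made from RPE/choroid, that is the retinal pigment epithelium with the vascular layer beneath it, of C57BL/6J mice. The naive control group consisted of 6 untreated mice collected at 12 months of age. The laser treated group consisted of 5 mice treated unilaterally with the 2RT laser, a nanosecond instrument, at 9 months of age, with the fellow eye left untreated. Their treated eyes were collected 3 months later, at 12 months. Strain, tissue and age at collection were shared by both groups, so the comparison asks whether transcripts of the autophagy machinery differed 3 months after treatment. RPE and choroid were not separated, and in such bulk tissue fewer cells of a type and less RNA per cell cannot be told apart.

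Autophagy encloses cytoplasm, damaged organelles or protein aggregates in a double membrane, the autophagosome, which then fuses with lysosomes. The ULK kinase complex starts the process, a class III PI3-kinase marks the membrane with the lipid PI3P, and ATG9 and ATG2 supply lipids for its growth. Ubiquitin-like conjugation enzymes then attach the ATG8 proteins (LC3 and GABARAP) to the membrane, where cargo receptors bind them. The RPE is a post-mitotic epithelium that digests shed photoreceptor outer segments every day, partly through LC3 attached to phagosomes, and it depends on autophagy to clear what remains. Transcript levels do not measure autophagic flux.

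Total counts ranged from 25700881 to 38755994 per library. Values are CPM, the counts of each library scaled by edgeR's TMM method to a common library size, or CPM per kilobase of annotated exon (RPKM) where genes are compared with each other. The 12 RPE markers summed to between 93894 and 130665 CPM in the naive control libraries and between 77261 and 126607 CPM in the laser treated libraries, and none was at 0 in every library. The 14 neural retina markers, all detected in every library, summed to between 6684 and 25860 CPM and between 4907 and 20145 CPM, so photoreceptor RNA was present in both groups. By this sum 4 libraries stood apart, naive control replicates 1 and 3 at 22135 and 25860 CPM and laser treated replicates 3 and 4 at 19520 and 20145 CPM, against 4907 to 11864 CPM in the other 7, and 11 of the 14 markers had an estimate below 0 after laser. Of 6 Schwann cell markers, 5 were in the table. They summed to between 295 and 535 CPM in the naive control and between 398 and 1120 CPM in the laser treated libraries. Of these 5, 3 were higher at an unadjusted p under 0.05, as were 8.24% of all genes, and 2 had an estimate below 0. The 4 blood markers in the table summed to between 48.1 and 326 CPM and between 37.2 and 159 CPM. The part of these cell types in the values below was not tested.

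The members spanned a wide range of levels. *Map1lc3a* (LC3A) had the highest mean level over the 11 libraries, 277 RPKM, followed by the cargo receptor *Sqstm1* (p62) at 150.4 RPKM. *Tax1bp1*, a receptor for ubiquitinated cargo, and *Gabarapl2*, an ATG8 protein, had 56.4 and 54.5 RPKM and exchanged places between libraries, with *Tax1bp1* higher in 7 of 11. The lowest levels were those of *Pik3r4* at 1.09, *Atg2b* at 0.583 and *Atg16l2* at 0.442 RPKM. *Atg16l2* was also the member with the fewest reads, 14 to 265 counts per library. Between these ends the order was mostly gradual, since of 34 pairs of neighbours in the ranking only 4 kept their order in all 11 libraries. The 5 ATG8 genes and 4 cargo receptor genes, whose proteins are partly degraded along with the cargo, were all among the 12 highest members. Apart from *Wipi1*, every gene of the initiation, PI3-kinase and lipid supply groups was below 10 RPKM. With the longest annotated transcript in place of all exons as the length, the ranks correlated with a Spearman rho of 0.973 over the 35 genes. By that length *Becn1*, *Atg13* and *Wipi2* were also above 10 RPKM, at 15.1, 11.6 and 10.9 RPKM.

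**Figure D1:**
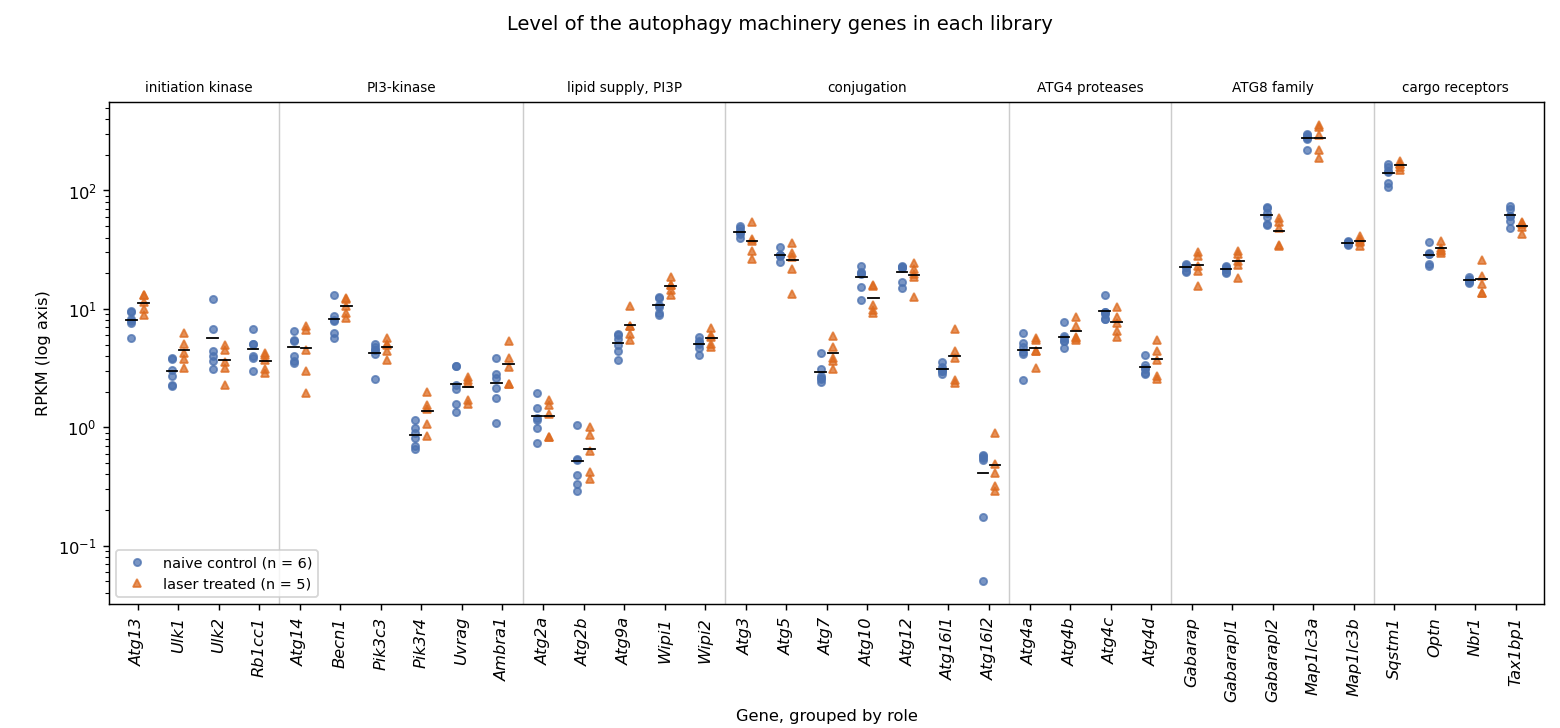
RPKM of each member in each library on a log axis, grouped by role, with circles for the 6 naive control libraries, triangles for the 5 laser treated libraries and a line at each group mean. *Map1lc3a* and *Sqstm1* stand above all other members, and *Atg16l2*, *Atg2b* and *Pik3r4* lie lowest.

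The spread between replicates also differed among members. *Map1lc3b* (LC3B), the ATG8 protein most used as an autophagosome marker, was the most even, with a coefficient of variation of 2.91% among naive control and 7.21% among laser treated libraries. Its within-group SD on the log2 scale, 0.0767, lay at the 0.0342 percentile of all genes. *Tax1bp1*, *Wipi2*, *Wipi1*, *Optn*, *Sqstm1* and *Gabarapl1* were also among the evenest genes, at percentiles of 4.77 to 6.83. The low genes *Atg16l2* and *Atg2b* and the kinase *Ulk2* varied most, at percentiles of 79.2, 62.1 and 60.2. The remaining members lay between the 16.3 and 59.3 percentiles.

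No member passed the test between groups at an adjusted p under 0.05 (edgeR quasi-likelihood test, Benjamini-Hochberg adjustment over 14602 genes), as for the whole table, where 0 genes (0.0%) did. An unadjusted p under 0.05 was found for 9 of 35 members, or 25.7%, against 15.9% of all genes. Of these 9, 6 were higher after laser (8.24% of all genes were) and 3 were lower (7.68%). *Wipi1* was the only member whose groups did not overlap in CPM, which was so for 2.26% of all genes. The point estimate was above 0 for 23 of 35 members, 65.7%, against 48.5% of all genes, and the median log2 fold change was 0.16 for the members and -0.02 for all genes. DESeq2, run as an alternative, gave *Wipi1* alone an adjusted p under 0.05, 0.019, where 7.88% of the genes it adjusted were called, and left 6 members without an adjusted p. The count of 9 depended on single libraries, since it was 4 without laser treated replicate 4, where 13.7% of all genes were at that level, and 5 without laser treated replicate 2, where 11.5% were. It was 6 within the libraries that carry the label R1 in their transcript files, where 17.6% of all genes were at that level, and 5 within those labelled R2, where 6.22% were. Without the 4 libraries highest in neural retina markers, which left 4 naive control and 3 laser treated libraries, it was 1, *Wipi1*, against 7.17% of all genes, and the median was 0.06. The median also did, with 0.06 without naive control replicate 4, 0.08 without naive control replicate 5, 0.10 without naive control replicate 3, 0.07 without laser treated replicate 4 and 0.10 without laser treated replicate 2.

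**Figure D2:**
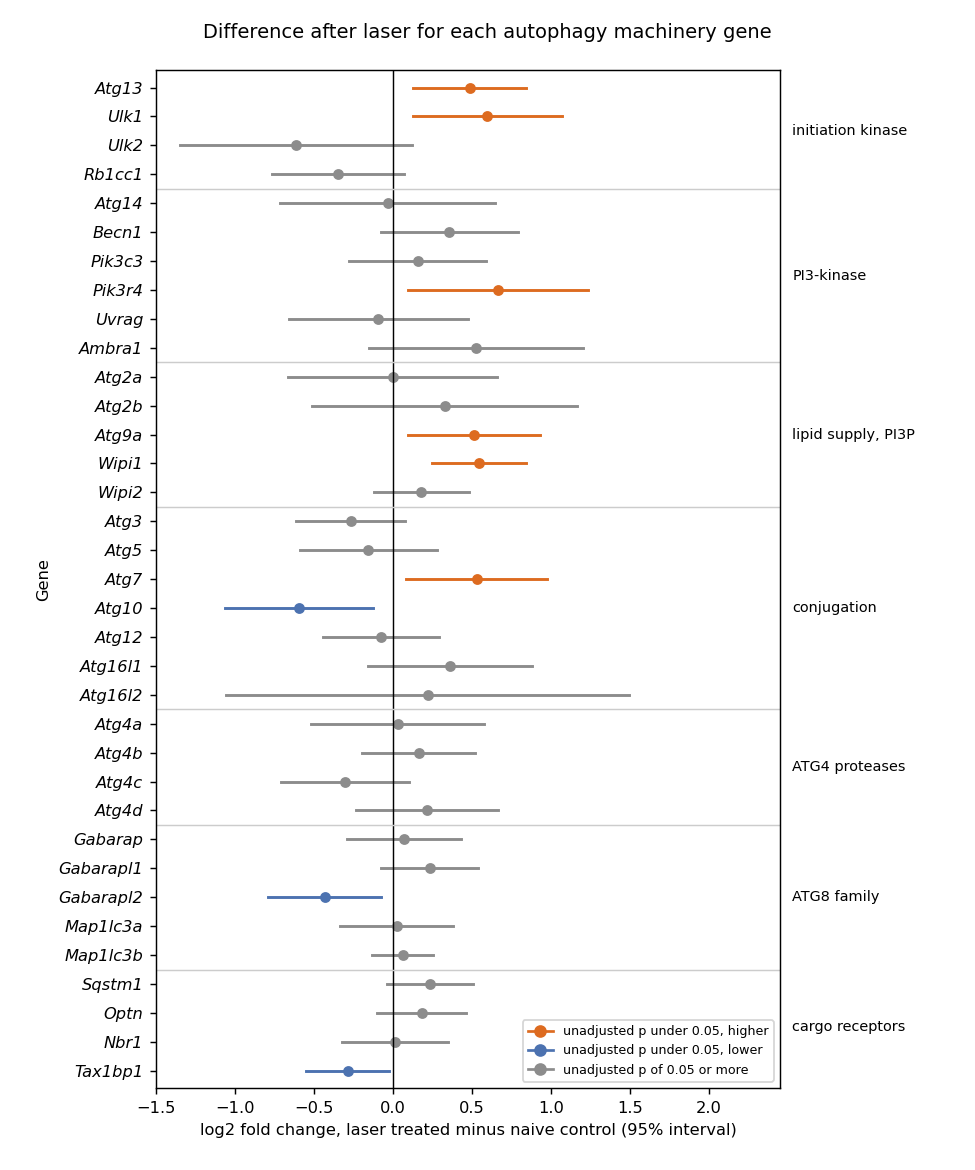
log2 fold change (laser treated minus naive control) with its 95% interval for each member, ordered by role. Colours mark the 6 members that were higher and the 3 that were lower at an unadjusted p under 0.05, and the other 26 intervals include 0.

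In the initiation kinase complex the 4 subunits differed in sign. *Ulk1* had a lowest, median and highest CPM of 14.5, 18.7 and 24.8 in the naive control libraries and values of 27.4, 32.5, 24.5, 41.0 and 20.6 in laser treated libraries 1 to 5. ULK1 is the kinase that starts autophagy when mTORC1 releases it, and its gene was above every naive control library in laser treated replicates 1, 2 and 4, with a log2 fold change 0.60 ± 0.22 (SE; 95% interval 0.13 to 1.07; adjusted p = 0.222). *Atg13* had a lowest, median and highest CPM of 24.99, 34.99 and 42.3 in the naive control libraries and values of 49.7, 57.8, 43.5, 57.1 and 38.7 in laser treated libraries 1 to 5. For this regulatory subunit, which links ULK1 to FIP200, 4 of 5 laser treated libraries were above every naive control library, with a log2 fold change 0.49 ± 0.17 (SE; 95% interval 0.13 to 0.85; adjusted p = 0.208). *Ulk2*, the close relative of *Ulk1*, gave 33.8 ± 20.1 CPM (SD, n = 6) in the naive control libraries and 22.1 ± 6.33 CPM (n = 5) in the laser treated libraries, a log2 fold change of -0.61 (-1.35 to 0.12). Naive control replicate 2 alone had 71.8 CPM of *Ulk2*, and without it the value was -0.24. *Rb1cc1*, which encodes the scaffold FIP200, was below the naive control median in 5 of 5 laser treated libraries, with a log2 fold change of -0.35 (-0.77 to 0.07).

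The ratio of *Ulk1* to *Ulk2* RPKM was the clearest contrast within a pair of related members. It was 0.254 to 0.952 in the 6 naive control libraries and 1.19, 1.10, 1.18, 1.28 and 1.39 in laser treated libraries 1 to 5, so that all 5 lay above every control. The pair was singled out after its values were seen, from 4 such pairs, and was not tested. The ratios of *Wipi1* to *Wipi2* (1.67 to 2.71 against 2.25 to 3.16), *Atg2a* to *Atg2b* (1.38 to 4.07 against 0.963 to 4.04) and *Atg16l1* to *Atg16l2* (5.12 to 60.9 against 5.13 to 15.4) overlapped between groups. The longest annotated transcripts of *Ulk1* and *Ulk2* hold 58.0% and 47.0% GC. After removal of the GC trend described below the log2 fold changes of these 2 genes were 0.31 and -0.50, at unadjusted p of 0.157 and 0.175 in edgeR's fit. The ratio was not recomputed with the trend removed, and its separation was not compared with that of other gene pairs in the table.

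Of the 6 genes of the class III PI3-kinase complexes, 4 had a point estimate above 0 and 1 was at an unadjusted p under 0.05. *Pik3r4* had a lowest, median and highest CPM of 6.36, 8.18 and 11.1 in the naive control libraries and values of 10.2, 19.2, 13.7, 14.8 and 8.20 in laser treated libraries 1 to 5. This regulatory kinase subunit (VPS15) was highest in laser treated replicates 2, 3 and 4, with a log2 fold change 0.67 ± 0.27 (SE; 95% interval 0.09 to 1.24; adjusted p = 0.248), while replicates 1 and 5 lay within the control range. The catalytic subunit *Pik3c3* (VPS34) differed by 0.16 (-0.28 to 0.59), the autophagy-specific subunit *Atg14* by -0.03 (-0.71 to 0.65) and *Uvrag*, which takes its place in endosomal complexes, by -0.09 (-0.66 to 0.47), all in log2. *Becn1* (Beclin 1) was above the naive control median in 5 of 5 laser treated libraries, with a log2 fold change of 0.36 (-0.08 to 0.79), although the highest value of all, 92.5 CPM, was that of naive control replicate 6. The exons of *Becn1* share 43.9% of their length with *Cntd1* on the other strand, and the reads carry no strand. *Ambra1*, a Beclin 1 regulator, differed by 0.52 (-0.15 to 1.20), with 33.0 CPM in laser treated replicate 4.

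Of the 5 genes for lipid supply and PI3P binding, 4 had an estimate above 0. *Wipi1* had a lowest, median and highest CPM of 39.2, 46.6 and 55.6 in the naive control libraries and values of 69.8, 82.2, 70.8, 58.1 and 63.1 in laser treated libraries 1 to 5. The lowest laser treated library was thus above the highest naive control library. WIPI1 binds PI3P on the forming autophagosome, its gene lies on chromosome 11, 109573331 to 109611967, reverse strand (GRCm38), and the difference, log2 fold change 0.54 ± 0.14 (SE; 95% interval 0.25 to 0.84; adjusted p = 0.172), or 1.46-fold, had the smallest p of all members (unadjusted p = 0.00163 from edgeR's test across all genes). It stayed at an unadjusted p under 0.05 whichever library was dropped, at log2 fold changes of 0.47 to 0.59, and within the R1 and the R2 libraries, at 0.72 and 0.45. Of 29 alternatives 28 kept it there, and the other was limma's trend fit on log2(TPM + 1), with a log2 fold change of 0.62 at an unadjusted p of 0.0886. Its relative *Wipi2*, which recruits ATG16L1, differed by only 0.18 (-0.12 to 0.48). *Atg9a* had a lowest, median and highest CPM of 21.4, 30.3 and 35.3 in the naive control libraries and values of 41.3, 35.7, 41.5, 60.4 and 31.4 in laser treated libraries 1 to 5. This lipid scramblase, the membrane protein that seeds the autophagosome, was above every naive control library in 4 of 5 laser treated libraries, with a log2 fold change 0.51 ± 0.19 (SE; 95% interval 0.09 to 0.93; adjusted p = 0.233). The lipid transfer genes *Atg2a* and *Atg2b* differed by -0.0025 (-0.66 to 0.66) and 0.33 (-0.51 to 1.17).

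**Figure D3:**
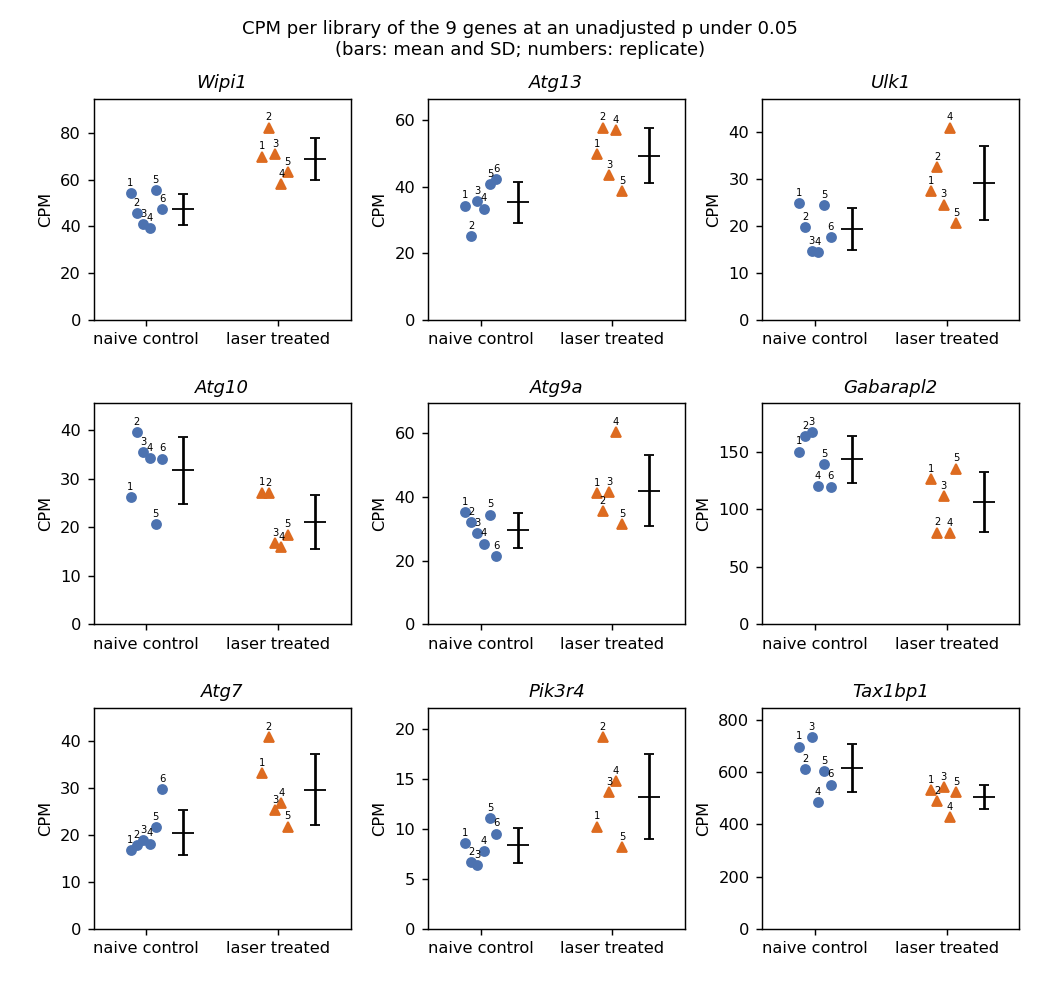
CPM in each library, numbered by replicate, of the 9 members at an unadjusted p under 0.05, with the mean and SD of each group beside the points. The groups do not overlap for *Wipi1* and overlap in at least 1 library for the other 8, and laser treated replicates 2 and 4 often lie farthest from the controls.

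The conjugation enzymes and their products did not share a direction, with 3 of 7 estimates above 0. *Atg7* had a lowest, median and highest CPM of 16.8, 18.5 and 29.7 in the naive control libraries and values of 33.3, 40.9, 25.4, 26.7 and 21.8 in laser treated libraries 1 to 5. ATG7, the E1-like enzyme at the head of both conjugation chains, was highest in laser treated replicates 1 and 2, with a log2 fold change 0.53 ± 0.21 (SE; 95% interval 0.08 to 0.98; adjusted p = 0.246). In the R1 libraries its log2 fold change was 1.08 and in the R2 libraries 0.11, a difference that was not tested. *Atg10* had a lowest, median and highest CPM of 20.6, 34.2 and 39.6 in the naive control libraries and values of 27.1, 27.0, 16.7, 15.9 and 18.5 in laser treated libraries 1 to 5. ATG10, the E2-like enzyme for ATG12, was below the naive control median in 5 of 5 laser treated libraries, with a log2 fold change -0.59 ± 0.22 (SE; 95% interval -1.06 to -0.12; adjusted p = 0.222). *Atg3*, the E2-like enzyme for the ATG8 proteins, had a log2 fold change of -0.27 (-0.61 to 0.08), and the conjugate genes *Atg5* and *Atg12* had -0.16 (-0.59 to 0.28) and -0.08 (-0.44 to 0.29). *Atg16l1*, which places the conjugate on the membrane, differed by 0.36 (-0.16 to 0.88), with 65.0 CPM in laser treated replicate 4 and 24.0 and 22.9 CPM in replicates 1 and 5. For the sparse *Atg16l2* the interval, -1.05 to 1.497, allows a large difference in either direction.

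None of the ATG4 proteases, which trim the ATG8 proteins and release them from membranes, had an unadjusted p under 0.05. Their log2 fold changes were 0.03 (-0.52 to 0.58) for *Atg4a*, 0.16 (-0.19 to 0.52) for *Atg4b*, -0.30 (-0.71 to 0.10) for *Atg4c* and 0.21 (-0.24 to 0.66) for *Atg4d*. *Atg4c* made up 34.1% to 51.7% of the summed RPKM of the 4 genes in the naive control libraries and 29.6% to 43.0% in the laser treated libraries, where 4 of 5 lay below every control. The size of this share depends on the length used. With the longest annotated transcript as the length, *Atg4b* had the higher mean, 12.1 RPKM against 9.22 RPKM for *Atg4c*.

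The 5 ATG8 genes differed little on average, with 4 estimates above 0 and a median log2 fold change of 0.06. *Map1lc3a* made up most of the family's transcripts, 65.9% ± 3.48 (SD, n = 6) of the summed RPKM in the naive control and 67.1% ± 5.41 (n = 5) in the laser treated libraries. *Map1lc3a* had a lowest, median and highest CPM of 260.4, 333 and 354 in the naive control libraries and values of 424, 348, 258, 220.0 and 402 in laser treated libraries 1 to 5. Its laser treated libraries lay on both sides of the controls, and its 3 lowest libraries, naive control replicate 3 and laser treated replicates 3 and 4, were 3 of the 4 highest in neural retina markers, with a log2 fold change 0.02 ± 0.17 (SE; 95% interval -0.33 to 0.38; adjusted p = 0.966). *Map1lc3b* had a lowest, median and highest CPM of 262, 269.8 and 281 in the naive control libraries and values of 254, 294, 276, 308 and 280.3 in laser treated libraries 1 to 5, a range within which the groups overlapped. The interval of *Map1lc3b* was the narrowest of all members, with a log2 fold change 0.06 ± 0.09 (SE; 95% interval -0.13 to 0.26; adjusted p = 0.811), so a change beyond 1.19-fold upward lies outside it.

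*Gabarap* had a lowest, median and highest CPM of 37.6, 41.8 and 44.2 in the naive control libraries and values of 51.4, 42.7, 38.6, 28.5 and 55.6 in laser treated libraries 1 to 5. The GABARAP proteins act mainly in late autophagosome maturation, and *Gabarap* itself gave a log2 fold change 0.07 ± 0.17 (SE; 95% interval -0.29 to 0.43; adjusted p = 0.894). *Gabarapl1* had a lowest, median and highest CPM of 40.4, 44.0 and 46.3 in the naive control libraries and values of 51.1, 47.4, 59.1, 61.5 and 36.8 in laser treated libraries 1 to 5. Of these laser treated libraries 4 were above every naive control library and 1, replicate 5, was below all of them, with a log2 fold change 0.23 ± 0.14 (SE; 95% interval -0.08 to 0.54; adjusted p = 0.472). Its exons share 28.3% of their length with *1700101I11Rik* on the other strand. *Gabarapl2* had a lowest, median and highest CPM of 119.8, 145 and 167 in the naive control libraries and values of 126, 79.9, 111, 79.1 and 136 in laser treated libraries 1 to 5. *Gabarapl2* (GATE-16) was the ATG8 gene at an unadjusted p under 0.05, with every laser treated library below the naive control median and 3 of 5 below every control, and a log2 fold change -0.43 ± 0.17 (SE; 95% interval -0.79 to -0.08; adjusted p = 0.238). Its share of the family's summed RPKM was 12.0% to 19.3% in the naive control and 8.27% to 13.6% in the laser treated libraries.

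**Figure D4:**
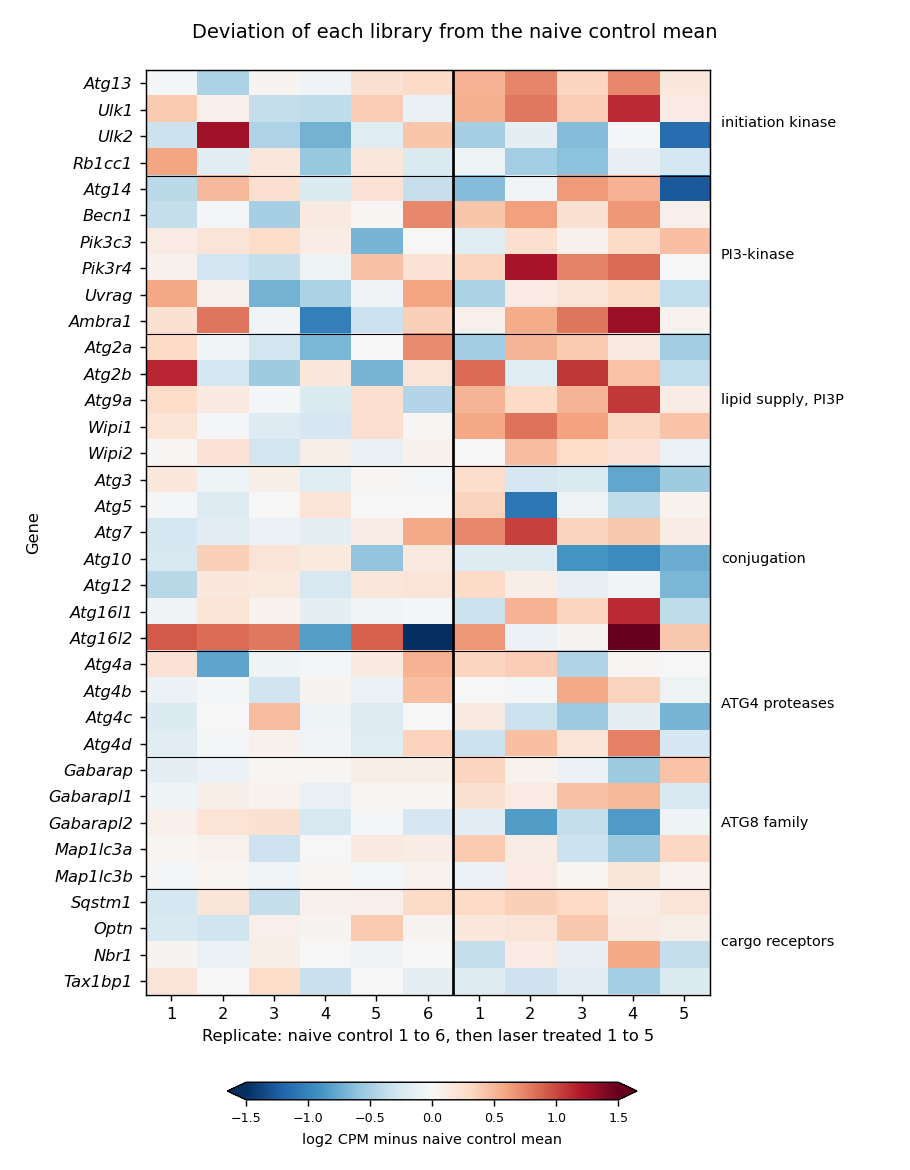
log2 CPM of each member in each library minus the mean over the 6 naive control libraries, with members in rows by role and libraries in columns, and colour limits at 1.5 in either direction. Laser treated replicate 4 holds the most members over 0.5 above the control mean, 11, while replicate 5 holds none above it and the most below it by as much, 7, and the deepest single value is *Atg16l2* in naive control replicate 6, at -2.63.

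Among the cargo receptors, *Sqstm1* had a lowest, median and highest CPM of 359, 486 and 562 in the naive control libraries and values of 567, 590.3, 566, 497 and 525.8 in laser treated libraries 1 to 5. p62 links ubiquitinated cargo to LC3, and all 5 laser treated libraries were above the naive control median, with a log2 fold change 0.23 ± 0.13 (SE; 95% interval -0.04 to 0.51; adjusted p = 0.395). On the other strand *Mrnip* shares 17.3% of its exon length. *Optn* had a lowest, median and highest CPM of 86.2, 109 and 139 in the naive control libraries and values of 118, 122, 141, 116 and 112 in laser treated libraries 1 to 5. Optineurin, a mitophagy receptor, also had 5 of 5 laser treated libraries above the naive control median, with a log2 fold change 0.18 ± 0.13 (SE; 95% interval -0.10 to 0.47; adjusted p = 0.549). *Nbr1* had a lowest, median and highest CPM of 113, 121 and 128 in the naive control libraries and values of 94.1, 131, 110.5, 179 and 94.5 in laser treated libraries 1 to 5. *Nbr1*, which acts beside p62, was spread wider in the laser treated group, with replicates 2 and 4 above and replicates 1, 3 and 5 below every naive control library, and a log2 fold change 0.01 ± 0.16 (SE; 95% interval -0.33 to 0.35; adjusted p = 0.982). *Tax1bp1* had a lowest, median and highest CPM of 485, 608 and 735 in the naive control libraries and values of 532, 490.2, 544, 429 and 523 in laser treated libraries 1 to 5. *Tax1bp1* had all 5 laser treated libraries below the naive control median, and replicate 4 below every control, with a log2 fold change -0.29 ± 0.12 (SE; 95% interval -0.55 to -0.02; adjusted p = 0.277).

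Of the 9 members at an unadjusted p under 0.05, *Wipi1*, *Atg13* and *Atg10* stayed at that level in edgeR's fit whichever of the 11 libraries was dropped. *Ulk1* and *Atg9a* did not without laser treated replicate 4, at p of 0.0675 and 0.0885. *Gabarapl2* did not without laser treated replicate 2 or 4, at p of 0.0595 and 0.053. For *Pik3r4* this was so without naive control replicate 3 or laser treated replicate 2 or 4, for *Atg7* without naive control replicate 1 or laser treated replicate 1 or 2, and for *Tax1bp1* without naive control replicate 1, 2 or 3 or laser treated replicate 2 or 4, with the highest p of 0.0934, 0.0866 and 0.0734. No sign changed.

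Higher and lower estimates were unevenly spread over GC content, the share of G and C bases in a gene's longest annotated transcript. Over all genes with a known GC content, log2 CPM relative to the gene's mean sloped downward with GC in all 6 naive control libraries (-0.36 to -0.01 per 10 points of GC) and upward in all 5 laser treated libraries (0.01 to 0.27). The log2 fold change accordingly sloped by 0.34 per 10 points over all genes and by 0.35 over the 35 members, where Pearson's r was 0.594 and Spearman's rho 0.643 across genes, which share their libraries. Of 19 members with at least 50% GC, 16 had an estimate above 0, with a median of 0.23, against 7 of 16 members under 50% GC, with a median of -0.12. Among all genes 68.2% and 29.9% were above 0 on the same sides. The 6 members that were higher at an unadjusted p under 0.05 held 51.7% to 58.0% GC, and the 3 that were lower held 39.6% to 45.3%.

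**Figure D5:**
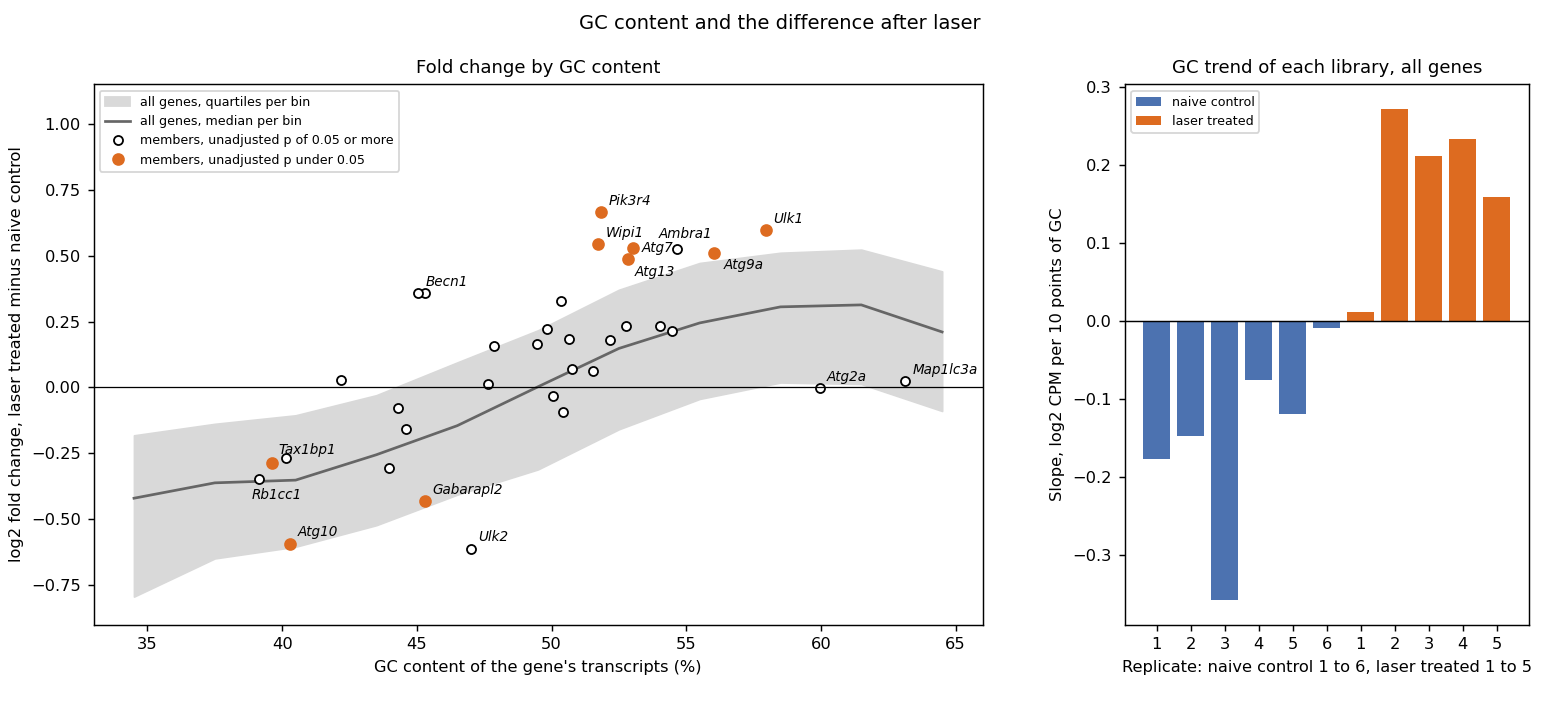
Left, log2 fold change of each member against the GC content of its longest annotated transcript, over the median (line) and quartiles (band) of all genes in bins of GC. Right, slope on GC of log2 CPM relative to the gene's mean over the 11 libraries, for all genes in each library. It was below 0 in all 6 naive control and above 0 in all 5 laser treated libraries. Naive control replicate 6 and laser treated replicate 1 lay close together, at -0.009 and 0.012.

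With this trend removed from each library, 5 members were at an unadjusted p under 0.05 in the edgeR fit across all genes, against 8.13% of all genes, and all 5 had a positive log2 fold change. They were *Wipi1* (0.46), *Becn1* (0.54), *Atg16l1* (0.56), *Pik3r4* (0.57) and *Atg13* (0.35), at unadjusted p of 0.00434 to 0.0472. By direction, 3.88% of all genes were higher and 4.25% lower at that level. *Wipi1*, *Pik3r4* and *Atg13* were also among the 9 above. The other 3 of the 6 higher members were no longer at that level, *Ulk1* (0.31), *Atg9a* (0.25) and *Atg7* (0.39), at unadjusted p of 0.157, 0.213 and 0.078 in edgeR's fit. Nor were the 3 lower members, of which *Atg10* (-0.26) and *Gabarapl2* (-0.24) kept their sign with a smaller size and *Tax1bp1* turned to 0.07. The estimate was then above 0 for 26 of 35 members, and their median was 0.10.

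The summed level of 83 cytosolic ribosomal protein genes was 3425 to 5531 CPM in the naive control libraries and 3830, 3152, 3188, 2657 and 5740 CPM in laser treated replicates 1 to 5, so that naive control replicate 6 lay among laser treated replicates 1 to 4, and laser treated replicate 5 above all other libraries. Without these 2 libraries, a choice that widens the distance between groups by this measure, 0 members passed at an adjusted p under 0.05, where 2.67% of all genes did, and 11 were at an unadjusted p under 0.05, where 20.3% of all genes were. The smallest adjusted p was then 0.059, for *Atg7*. Laser treated replicate 4 had the lowest ribosomal sum, and it was the highest of the 11 libraries for 9 members and the lowest for 6. The part of the ribosomal protein level in these differences was not tested.

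The wider pathway was followed with 6 lists of 107 other genes, of which 102 were in the table, and none passed at an adjusted p under 0.05. Of these, 26, or 25.5%, had an unadjusted p under 0.05, with 17 higher and 9 lower, against 15.9% of all genes (8.24% higher and 7.68% lower). The lists were chosen with earlier results of these data known, so such shares are descriptive. With the GC trend removed 13 genes were at that level, 12.7% against 8.13% of all genes, and 9 of them were among the 26. Among 18 genes for fusion of autophagosomes with lysosomes, 13 had an estimate above 0 and 5 were higher at an unadjusted p under 0.05, with the smallest p for *Tecpr1*, a tethering factor (log2 fold change 0.59 ± 0.12, adjusted p = 0.172), and *Grn*, progranulin (log2 fold change 0.55 ± 0.15, adjusted p = 0.174), and 3 of these 5 stayed at that level with the GC trend removed, with 0.30 for *Tecpr1* and 0.31 for *Grn*. Of 34 genes of mTORC1 and AMPK regulation, which sense nutrients and energy upstream of ULK1, 5 were higher and 5 lower at that level. *Flcn*, folliculin (log2 fold change 0.52 ± 0.17, adjusted p = 0.194), and *Prkag1*, an AMPK gamma subunit (log2 fold change 0.46 ± 0.15, adjusted p = 0.195), led the first, and *Prkaa2*, the AMPK alpha2 catalytic subunit (log2 fold change -0.74 ± 0.17, adjusted p = 0.172), and *Hbxip*, the Ragulator subunit LAMTOR5 (log2 fold change -0.67 ± 0.19, adjusted p = 0.174), the second. With the GC trend removed 3 of these 10 stayed at that level, *Prkag1* (0.32), *Prkaa2* (-0.42) and *Hbxip* (-0.66), while *Flcn* was at 0.30.

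Of 16 receptors for autophagy of organelles, 5 were higher and 3 lower at an unadjusted p under 0.05. The mitophagy genes *Fkbp8* (log2 fold change 0.50 ± 0.10, adjusted p = 0.172) and *Pink1* (log2 fold change 0.34 ± 0.12, adjusted p = 0.218) had the smallest p on the higher side, and *Fundc1*, another mitophagy receptor (log2 fold change -0.39 ± 0.13, adjusted p = 0.204), and *Sec62*, a receptor of the endoplasmic reticulum (log2 fold change -0.62 ± 0.21, adjusted p = 0.208), on the lower side. Of these 8 only *Fkbp8* (0.21) stayed at that level with the GC trend removed, and *Pink1* was then at 0.04, *Fundc1* at -0.03 and *Sec62* at -0.32. Of 17 other genes of autophagosome formation 1 was at that level, *Smcr8* (log2 fold change 0.65 ± 0.29, adjusted p = 0.302), the partner of C9ORF72, which was at 0.69 with the trend removed and stayed at that level. None of 8 genes of LC3-associated phagocytosis was. The 2 smallest p there were those of *Mreg*, which is needed for phagosome maturation in the RPE (log2 fold change -0.73 ± 0.41, adjusted p = 0.419), and *Cybb*, the NOX2 oxidase subunit of phagocytes (log2 fold change 1.27 ± 0.72, adjusted p = 0.42). *Cybb* was low, at 3.56 ± 3.72 CPM (SD, n = 6) in the naive control and 8.63 ± 4.50 CPM (n = 5) in the laser treated libraries. With the GC trend removed *Mreg* was at -0.68 and *Cybb* at 1.59. *Cybb* was then the 1 gene of this list at an unadjusted p under 0.05.

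Of 9 genes for transcription factors of autophagy and lysosomal genes in the table, *Tfeb*, a main activator of both, was higher at an unadjusted p under 0.05 with groups that did not overlap, 14.0 ± 3.31 CPM (SD, n = 6) against 25.2 ± 3.99 CPM (n = 5; log2 fold change 0.85 ± 0.20, adjusted p = 0.172). Its relative *Mitf*, the melanocyte and RPE factor, was lower at that level (log2 fold change -0.49 ± 0.18, adjusted p = 0.22). Of the pathway genes, *Tecpr1*, *Prkag1* and *Fkbp8* also had groups that did not overlap, which was so for 2.26% of all genes. The longest annotated transcript of *Tfeb* holds 63.2% GC. With the GC trend removed the values were 0.55 for *Tfeb* and -0.25 for *Mitf*, of which *Tfeb* alone stayed at an unadjusted p under 0.05. TFEB and MITF bind the E-box CACGTG, in autophagy and lysosomal genes often within TCACGTGA, so the RefSeq promoters (GRCm38.p6, 250 bases before to 50 after the start) of the members were searched for these letters. Both words equal their own reverse complement, and the first lies within the second. Promoters were listed for 29 of 35 members.

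CACGTG stood in the promoters of 4 members, 13.8%, against 11.7% of the table's genes with a promoter and 7.15% of all listed promoters. These were *Atg3* (log2 fold change -0.27), *Atg5* (-0.16), *Atg7* (0.53) and *Atg14* (-0.03). The start listed for *Atg7*, the only one of them with an estimate above 0, lies 27999 bases inside the annotated gene. The last 50 bases of its window are in none of the annotated transcripts, so the window is not the promoter at the gene's annotated start. For *Atg14* the listed start lies 2215 bases inside the gene, so the sequence before its annotated start was not searched. The longer word was found in *Atg3* alone, 3.45% of members, against 2.12% and 0.974%. The promoters of *Wipi1*, the member with the smallest p, and of *Atg3*, the member with both words, are printed below from 5′ to 3′, with CACGTG in capitals. That of *Wipi1* (chr11:109611340-109611639, reverse strand) holds 69.0% GC and no such word, but its listed start lies 578 bases inside the annotated gene. The sequence before the annotated start of *Wipi1* was thus not searched. In the promoter of *Atg3* (chr16:45158579-45158878, forward strand) the words begin 94 and 71 bases before the start.
Wipi1: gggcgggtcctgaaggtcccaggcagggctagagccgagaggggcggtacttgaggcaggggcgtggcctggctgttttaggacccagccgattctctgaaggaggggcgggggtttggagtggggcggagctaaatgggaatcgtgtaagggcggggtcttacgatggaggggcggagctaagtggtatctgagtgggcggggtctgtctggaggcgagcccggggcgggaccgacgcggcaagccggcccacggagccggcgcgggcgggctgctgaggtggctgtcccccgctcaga
Atg3: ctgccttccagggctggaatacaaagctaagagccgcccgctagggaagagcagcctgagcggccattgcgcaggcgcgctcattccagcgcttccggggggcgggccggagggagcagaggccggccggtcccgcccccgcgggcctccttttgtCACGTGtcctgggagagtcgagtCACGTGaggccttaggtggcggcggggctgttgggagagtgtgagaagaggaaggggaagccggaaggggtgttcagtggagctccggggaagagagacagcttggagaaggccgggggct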

How the data were processed

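The authors deposited, per the file header, a table of raw read counts for 14602 genes, without normalization or pooling, together with their own fold changes, p-values and FDR, which were not used. The submitters' processing notes name Trim Galore, STAR 2.5.3a, featureCounts 1.5.3, StringTie 1.3.3 and edgeR 3.22.3, with mm10 and GRCm38. RNA was pre-amplified with a SmartSeq v4 kit and made into libraries with NexteraXT, which do not mark strand, so reads of overlapping genes cannot be told apart. The transcript files deposited for each library give TPM, which were summed per gene, and a label, R1 or R2, in their first line. The meaning of this label is not given in the sources used here.

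Counts were compared (laser treated minus naive control) with edgeR 4.0.16 in R 4.3.3, by its robust quasi-likelihood test after TMM scaling. filterByExpr took out 0 genes. Benjamini-Hochberg adjustment covered every gene of the table. The common biological coefficient of variation was 0.58. At 14 to 24651 counts per library for the members, the standard errors and 95% intervals give the precision. Positions, lengths and GC content on GRCm38 came from GENCODE M21, which matched 97.6% of the table. RPKM is CPM divided by the union of exons in kilobases. Alternatives were DESeq2 1.42.0, limma 3.58.1 (voom on counts, and a trend fit on log2(TPM + 1)), other scalings and filters, the replicate number as a block, the R1 or R2 label, a loess GC trend (span 0.3) removed from each library, and libraries left out. The fits were tested on simulated counts.

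The members, the pathway lists and the tests were chosen with earlier results of these data known. All members are accounted for, with full statistics for the ATG8 family, the cargo receptors and the 6 members with the smallest p, and at most the 2 genes with the smallest p in each direction are named from a pathway list. *Pik3r4* and *Atg7* were given the same statistics after their values were seen, and paralog ratios, the GC fit without 2 libraries and the fit without the 4 libraries highest in neural retina markers were added then. In *Atg9a* 31.8% of the exon length is shared with *Gm29253* on the same strand.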

Additional observations from a re-analysis of the deposited data

Results flagged for a closer look

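In 4 of 70 groups of values (35 members in each of 2 groups), 1 library lay far from the others by Dixon's criterion, where chance gives about 1 in 20 groups. Naive control replicate 1 had 14.1 CPM of *Atg2b*, against 3.93 to 7.28 CPM in the other naive control libraries. Naive control replicate 3 had 43.9 CPM of *Atg4c*, against 27.4 to 31.6 CPM, and 260.4 CPM of *Map1lc3a*, against 321 to 354 CPM. Naive control replicate 5 had 11.5 CPM of *Pik3c3*, against 18.6 to 22.7 CPM. None of these 4 members had an unadjusted p under 0.05 in edgeR's comparison of the groups.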

How the results depend on the processing

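No member passed at an adjusted p under 0.05 in any edgeR or limma fit, while DESeq2 called 1, *Wipi1*. The count at an unadjusted p under 0.05, 9, was 5 with the GC trend removed (8.13% of all genes), 2 with the GC trend removed and the replicate block (10.7%), 5 within the R2 libraries (6.22%), 6 within R1 (17.6%), and 4 to 11 with each library left out in turn, which also took the median log2 fold change from 0.063 to 0.194. Without the 4 libraries highest in neural retina markers, a choice made after the data were seen, the count was 1 (7.17% of all genes) and the median 0.058. With the replicate block alone the count was 7 (17.4%). The main fit did not treat same-numbered libraries as pairs, and the correlations of their deviations were -0.01 to 0.28. For laser treated replicates 2 and 3 the most similar control was the same-numbered one, and for replicates 1, 4 and 5 it was another. *Tax1bp1* changed sign, to 0.068 with the GC trend removed, 0.089 with the replicate block as well, and 0.079 when the GC trend was removed without naive control replicate 6 and laser treated replicate 5. In that last fit *Atg12* was at 0.33. There 8 members were at an unadjusted p under 0.05 (13.6% of all genes), 28 of 35 had an estimate above 0, and the median was 0.169. Of 35 members, 16 kept their sign in all 29 alternatives, 8 of the 9 and 8 of the other 26. The 9 were picked by their p in these same libraries. Of the alternatives, the fit without a filter repeats the main fit, since 0 genes were filtered out. The cause of these shifts was not tested. Depth limits *Atg16l2* most, at 14 counts in its lowest library.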
